A study of Mus musculus with 18 samples.

Results

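Mononucleated cardiomyocytes collected on day 7 after birth (P7) were compared with mononucleated cardiomyocytes of fetuses at E18.5, the last day or so before birth. These 2 groups supplied 3 libraries each, P7 mononucleated replicates 1 to 3 and E18.5 mononucleated replicates 1 to 3, which are 6 of the 18 libraries of the series. All 12048 genes listed in every library were compared, and the libraries were taken by their labels alone, not by any measured value. Every mouse carried Mlc2vcre and R26REYFP, so that a Cre driven by the promoter of Myl2, the ventricular regulatory light chain, switched on a yellow fluorescent reporter; no other allele and no treatment is named. Heart muscle cells were separated into cells with 1 nucleus and cells with 2 nuclei in a flow sorter and collected into a lysis reagent. How nuclear number was read in the sorter and the sex of the mice are nowhere stated in the sources used. Nor do these sources state whether a replicate is 1 animal or a pool. The p-values thus measure the spread between libraries within groups, pooled over all 18 libraries, which may be technical. The other 12 libraries were binucleated cells at P7 and E18.5 and both classes in the adult.

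Around birth the mouse heart leaves a low-oxygen circulation fed mostly with glucose and lactate and begins to pump oxygen-rich blood while the pup drinks fat-rich milk. Cardiomyocytes respond over the following days with a change of fuel, from sugar to fatty acids burned in mitochondria, with an exchange of fetal for adult contractile protein isoforms, and with a last round of DNA synthesis after which most of them do not divide and many become binucleated. The nuclear receptors of the PPAR, RXR and thyroid hormone families carry much of this programme, because they bind fatty acids or hormones and switch on metabolic and contractile genes. Cells that stay mononucleated are of interest because the ability to divide again has been linked to them.

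The recovered read counts summed to 16476191 to 20909939 per library at P7 and to 19951367 to 22690952 at E18.5. Levels are given in CPM, read counts scaled to a common library size, and changes as P7 minus E18.5 on the deposited log2 scale with the standard error (SE) of the limma model. A gene was called when its Benjamini-Hochberg adjusted p, over all 12048 genes, was under 0.05. Log2 values correlated at 0.971 to 0.98 among the P7 libraries, at 0.954 to 0.957 among the E18.5 libraries, and at 0.887 to 0.915 between ages. Of the cardiomyocyte markers, 12 were measured, and their summed level was 43950 to 46830 CPM at P7 and 34430 to 39750 CPM at E18.5. The labelled cell type thus held in every library, with Actn2, the Z-disc crosslinker, at 3520, 3730 and 3730 CPM at P7 and 3690, 3610 and 3890 CPM at E18.5.

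Of the 12048 genes, 2231 were called, 1286 of them higher at P7 (10.7%) and 945 lower (7.84%). Past a 2-fold change lay 746 of the higher and 451 of the lower genes, while the median change over all genes was 0.01. When totals of all listed genes replaced the deposited scaling, the split was 1087 higher and 1223 lower, and the median of all genes moved to -0.08; with quantile normalization it was 1273 and 1275. E18.5 binucleated replicate 1 is a library outside this comparison, but it enters the spread shared by the fit; log2 values correlated at 0.884 to 0.964 within its group, and without it 2147 genes were called higher and 1754 lower. Genes are described below in groups, each with the number of measured members that were called in each direction, to be read against the shares of all genes called. Group counts from other fits are to be read against all genes in those fits. In the 6 compared libraries alone 2049 genes were higher and 1826 lower, and with voom weights 1427 and 1196. With 1 of the 6 compared libraries left out, 978 to 1108 were higher and 621 to 725 lower.

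**Figure D1:**
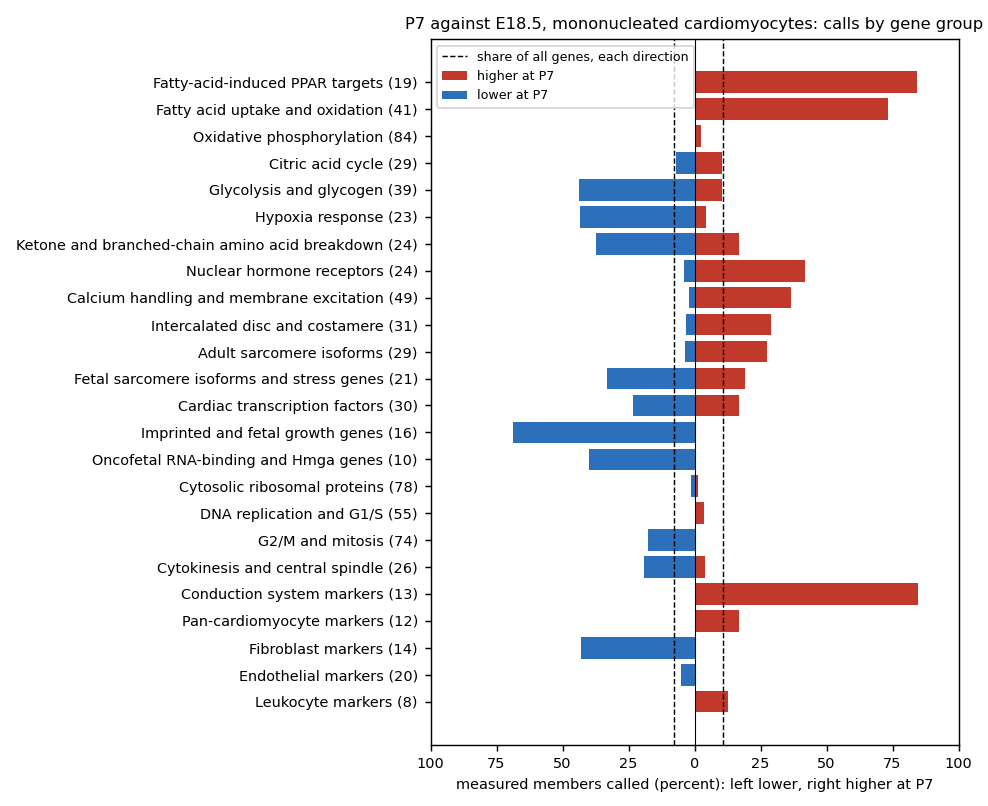
Share of the measured members of 24 gene groups that were called higher (bars to the right) or lower (bars to the left) at P7 than at E18.5 in mononucleated cardiomyocytes, in percent, with the number of measured members in parentheses. The dashed lines mark the shares over all 12048 genes, 10.7% higher and 7.84% lower; fatty acid genes and conduction markers reach furthest to the right and imprinted genes furthest to the left.

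Steep gains were found in genes that fatty acids switch on through PPAR receptors. Of 19 measured members of that list 16 were called higher and 0 lower, with a median change of 1.83. Ucp3, a mitochondrial inner membrane carrier of muscle, had 117, 55.9 and 72.2 CPM at P7. It had no count in any E18.5 library, which makes it at least 1990-fold higher at P7 against a floor of 3 counts over the E18.5 group (limma adjusted p = 8.83e-10). Its relative Ucp2 had 394, 354 and 368 CPM at P7 and 5.04, 6.31 and 9.61 CPM at E18.5, a log2 change of 5.78 ± 0.28 (SE; limma adjusted p = 1.02e-09). The P7 values of both genes were all far above the E18.5 values, with no overlap.

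Angptl4, a secreted inhibitor of lipoprotein lipase, reached 123, 64.6 and 63.1 CPM at P7, against 1.28, 1.03 and 3.2 CPM at E18.5. Slc25a34, a mitochondrial carrier, gained 5.14 ± 0.35. Pdk4, a kinase that inhibits pyruvate dehydrogenase, had 670, 414 and 356 CPM at P7 and 82.3, 121 and 147 CPM at E18.5, a gain of 2.02 ± 0.39 (limma adjusted p = 0.00159). Plin5, which coats lipid droplets beside mitochondria, had 187, 191 and 211 CPM at P7, against 22.5, 14.8 and 20.4 CPM at E18.5. Fbp2, the muscle form of fructose bisphosphatase and no member of this list, had 3540 counts over the P7 libraries and 3 over the E18.5 libraries, a ratio of 1370 with a 95% counting interval of 469 to 6660.

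The wider list of fatty acid uptake and oxidation genes, 41 in number and sharing several members with the PPAR list, was called in 1 direction. In it 30 members were called higher and 0 lower, and the median change was 0.78. Entry into the cell was covered by Cd36, the main fatty acid translocase, at 1340, 1380 and 1540 CPM at P7 and 592, 539 and 595 CPM at E18.5, and by Slc27a1, a fatty acid transport protein, which gained 1.86 ± 0.12. The carnitine shuttle was covered by Slc25a20, its inner membrane exchanger, at 358, 444 and 423 CPM at P7 and 147, 134 and 143 CPM at E18.5 (1.52 ± 0.09), and by Cpt2, which gained 1.36 ± 0.13. Cpt1a, the liver-type outer membrane enzyme of the shuttle, gained 0.78 ± 0.22 with a limma adjusted p of 0.0224, and was no longer called when E18.5 mononucleated replicate 1 or 2 or P7 mononucleated replicate 1 or 2 was left out. Along the oxidation spiral, Decr1, which handles unsaturated fatty acids, had 440, 515 and 501 CPM at P7, against 153, 136 and 149 CPM at E18.5. Acadvl, Acadl and Acadm, the dehydrogenases for very long, long and medium chains, gained 1.10 ± 0.14, 0.66 ± 0.12 and 0.67 ± 0.10. Hadha and Hadhb, the subunits of the trifunctional protein, gained 0.91 ± 0.11 and 1.04 ± 0.10. In adult mononucleated libraries Cd36 averaged 2650 CPM and Plin5 543 CPM, above their P7 levels, while Ucp2 averaged 110 CPM, below its P7 level.

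**Figure D2:**
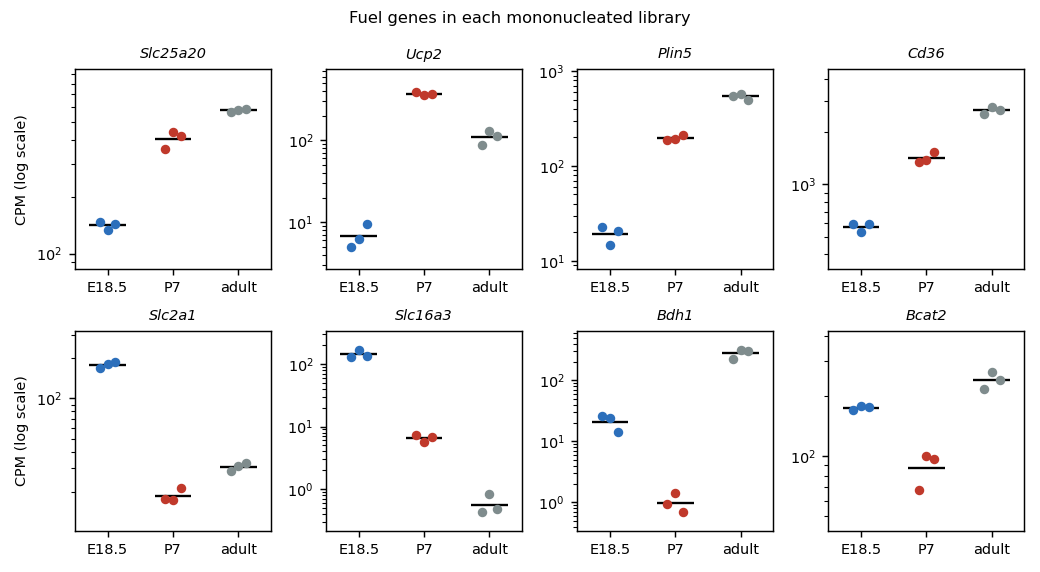
Level of 8 fuel genes in each mononucleated library of the 3 ages (E18.5, P7, adult), in CPM on a log axis; points are libraries and bars are means of the log values. Ucp2 is highest at P7, Slc25a20, Plin5 and Cd36 climb from stage to stage, Slc2a1 and Slc16a3 are low after birth, and Bdh1 and Bcat2 are lowest at P7.

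The respiratory chain behind this oxidation moved little by comparison. Of 84 genes of oxidative phosphorylation, 80 had a positive change, but the median was 0.28, and the 2 called higher were Ucp3 and Ckmt2, the mitochondrial creatine kinase of the sarcomere, at 961, 1170 and 1260 CPM at P7 and 380, 308 and 332 CPM at E18.5. In 43 of the 84 the P7 values lay wholly above the E18.5 values (24.6% of all genes did). How many members passed the test depended on the libraries in the fit: 42 without E18.5 binucleated replicate 1, 31 in a fit of the 6 libraries alone, and 2 or 3 when a library of the compared groups was left out. The sum of these genes was 92810 CPM in E18.5 binucleated replicate 1, against 48830 and 49990 CPM in replicates 2 and 3 of that group. In the citric acid cycle list 3 of 29 were called higher and 2 lower; without E18.5 binucleated replicate 1, 12 were called higher, and without any 1 of the 6 compared libraries 1 was called lower. Pcx, which refills the cycle from pyruvate, fell to 12.5, 11.6 and 12.4 CPM at P7, against 61.6, 59.9 and 63.1 CPM at E18.5, a change of -2.34 ± 0.32 (limma adjusted p = 6.79e-05). Among 36 mitochondrial regulators 2 rose and 3 fell, with 7 higher and 5 lower without E18.5 binucleated replicate 1, and with 1 lower without E18.5 mononucleated replicate 3 or P7 mononucleated replicate 2. Pink1, the kinase that marks damaged mitochondria, gained 1.23 ± 0.13, while Hspd1, the matrix chaperonin, changed by -0.51 ± 0.10. Ppargc1a, the coactivator best known for driving mitochondrial biogenesis, was not called, at 226, 214 and 200 CPM at P7 and 272, 270 and 282 CPM at E18.5. It was called lower in 5 of 21 alternative settings.

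Sugar breakdown went the other way. Of 39 glycolysis and glycogen genes 17 were called lower and 4 higher, with a median of -0.43. Slc2a1, the fetal glucose transporter Glut1, stood at 17.8, 17.3 and 21.5 CPM at P7, against 169, 181 and 188 CPM at E18.5, a change of -3.25 ± 0.15 (limma adjusted p = 6.93e-10). Slc16a3, the lactate exporter Mct4, had 7.21, 5.69 and 6.69 CPM at P7 and 127, 164 and 135 CPM at E18.5, a change of -4.44 ± 0.34. Pygl and Pgam1, a glycogen phosphorylase and a phosphoglycerate mutase, fell by 2.25 and 1.64 on the log2 scale. The 4 genes that rose are the muscle forms of their steps: Slc2a4, the insulin-responsive transporter Glut4, had 296, 288 and 307 CPM at P7 and 170, 156 and 172 CPM at E18.5, and Pfkm, Pfkfb2 and Eno3 gained 0.78, 1.22 and 0.52. Eno1, the widely expressed enolase that Eno3 replaces in muscle, fell to 389, 291 and 471 CPM at P7, against 954, 1160 and 1190 CPM at E18.5.

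Genes of the hypoxia response overlapped with this group. Of 23 measured, 10 were called lower and 1 higher, and the median was -0.52. Ndrg1, a stress gene that low oxygen induces, had 4.82, 2.42 and 4.19 CPM at P7 and 45.5, 48.6 and 47.3 CPM at E18.5. Adm, the vasodilator peptide adrenomedullin, fell by 1.86 and Bnip3, a mitophagy receptor, by 1.03. Epas1, which encodes the oxygen-sensitive factor Hif2a, was the member that rose, at 71.9, 58.5 and 43.6 CPM at P7, against 6.32, 4.63 and 10.5 CPM at E18.5. Hypoxia-inducible factors bind DNA at the letters ACGTG, and promoters of this list and of the glycolysis list were searched for them on both strands, in the window from 250 bases before to 50 after each RefSeq start (GRCm38.p6, matched by gene symbol; the counts themselves are of build mm9). The letters stood in 14 of 24 promoters of hypoxia genes (58.3%) and 26 of 56 of glycolysis genes (46.4%), against 19.6% of all 32851 promoters. In the other lists searched the share was 12.5% for fatty acid genes (5 of 40), 26.3% for PPAR targets (5 of 19), 25.9% for replication genes (14 of 54) and 28.6% for mitosis genes (20 of 70). The direct repeat bound by PPAR with RXR, AGGTCA followed by any base and AGGTCA again, stood on either strand in 0 of the 40 and 0 of the 19, and in 13 of all promoters (0.0396%). A match is a description and shows no binding, and its absence from this window says nothing of the factor. ACGTG did not go with the direction of change: it also stood in promoters of Pfkm and Pfkfb2, which rose, and of Hk2, which was not called. No promoter searched of Eno1 or Gpi1, which fell, held it. The 130 bases just before the start of the 2 transporter genes with the steepest falls are shown, 5′ to 3′ along the gene, with the ACGTG letters in capitals; they lie at chr4:119108615-119108744 (plus strand) and chr11:120948937-120949066 (plus strand).
Slc2a1: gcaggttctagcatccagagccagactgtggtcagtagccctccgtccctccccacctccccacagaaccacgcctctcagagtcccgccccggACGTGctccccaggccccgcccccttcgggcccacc
Slc16a3: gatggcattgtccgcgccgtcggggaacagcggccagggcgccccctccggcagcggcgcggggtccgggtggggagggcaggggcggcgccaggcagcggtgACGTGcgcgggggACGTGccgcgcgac
The Slc2a1 match begins 36 bases before the start, and those of Slc16a3 begin 27 and 14 bases before it.

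Of 24 measured genes of ketone body and branched-chain amino acid breakdown 4 rose and 9 fell. Bdh1, the first enzyme of ketone body use, was almost silent at 0.955, 1.44 and 0.698 CPM at P7, against 26.2, 23.9 and 14.0 CPM at E18.5, a change of -4.35 ± 0.29 (limma adjusted p = 3.71e-08). Adult mononucleated cells had 278 ± 46.8 CPM (SD, n = 3). Oxct1, the next enzyme of ketone use, also fell, by 0.47, a call lost when E18.5 mononucleated replicate 1 or P7 mononucleated replicate 1 was left out. Bcat2, which removes the amino group of branched-chain amino acids, had 68, 101 and 97.5 CPM at P7, against 171, 178 and 176 CPM at E18.5. Bckdhb and Dbt, subunits of the dehydrogenase that follows, and Ppm1k, the phosphatase that switches it on, changed by -1.05 ± 0.16, -0.84 ± 0.16 and -0.97 ± 0.12. Bckdha, another subunit of the same dehydrogenase, went the other way, at 116, 117 and 136 CPM at P7 and 79.1, 80.1 and 81.8 CPM at E18.5 (0.61 ± 0.11, limma adjusted p = 0.0011). Klf15, a transcription factor known in the adult heart for control of these amino acid genes, had 23.4, 19.7 and 23.2 CPM at P7 and 64.6, 57.5 and 70.4 CPM at E18.5, a change of -1.54 ± 0.18 (limma adjusted p = 1.63e-05). Adult levels of Klf15 and Bcat2 were higher than at either earlier age, at means of 185 and 241 CPM.

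Several fetal contractile isoforms were far lower at P7, while the main adult isoforms differed less. In the list of fetal isoforms and stress genes 7 of 21 fell and 4 rose. Myh7, the slow myosin heavy chain of the fetal mouse ventricle, stood at 1400, 701 and 813 CPM at P7, against 11600, 12100 and 13500 CPM at E18.5, a change of -3.74 ± 0.41 (limma adjusted p = 7.44e-06). Myh6, its fast adult counterpart, had 14700, 15200 and 13800 CPM at P7 and 8580, 7980 and 11200 CPM at E18.5; the groups did not overlap, but the change of 0.67 ± 0.34 was not called (limma adjusted p = 0.205). Myh6 was called higher in 5 of 21 alternative settings. Myh6 and Myh7 are near-identical neighbours, and how reads that match both were counted is not known. The atrial and fetal light chains Myl7 and Myl4 changed by -4.95 ± 0.99 and -3.59 ± 0.36. Myl7 had 2.95, 2.98 and 25.1 CPM at P7, so replicate 3 stood apart from its partners, and 190, 205 and 171 CPM at E18.5. The smooth muscle actin Acta2 and its partners Myl9, Tpm2 and Cnn1, all used by immature cardiomyocytes, fell by 0.76, 0.87, 1.55 and 2.06. Acta2 and Cnn1 are also counted below among the pericyte and smooth muscle markers. Acta2 was no longer called without P7 mononucleated replicate 1, and Cnn1 without any 1 of the 6 compared libraries.

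For troponin I neither isoform passed the test in the main fit. Tnni1, the slow fetal form, had 1110, 1330 and 1490 CPM at P7 and 2440, 2240 and 2450 CPM at E18.5, a change of -0.87 ± 0.35 that missed the threshold (limma adjusted p = 0.104). Tnni3, the adult cardiac form, had 1980, 2160 and 2450 CPM at P7, against 1720, 1590 and 1740 CPM at E18.5, with no overlap and no call. Of 21 alternative settings, Tnni1 was called lower in 6 and Tnni3 higher in 4. Of 29 genes of the adult sarcomere list 8 rose and 1 fell, with a median of 0.25; without E18.5 binucleated replicate 1 the 8 became 14, and without P7 mononucleated replicate 3 they became 5. Tcap, the titin cap of the Z-disc, had 627, 629 and 639 CPM at P7 and 260, 259 and 221 CPM at E18.5. Myom2, the M-band crosslinker of fast and adult muscle, gained 1.56 ± 0.32, with 1870, 1850 and 1200 CPM at P7 and 540, 511 and 593 CPM at E18.5. Xirp2, an actin-binding repeat protein of cell junctions listed with the stress genes, gained 3.59 ± 0.33. Trim54, a sarcomere ubiquitin ligase, gained 1.42 ± 0.18, and Fbxo32, the atrophy-associated ligase, 1.52 ± 0.24. Myh7b, another heavy chain gene that hosts a microRNA, fell to 46.5, 33.0 and 40.0 CPM at P7, against 122, 119 and 127 CPM at E18.5.

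**Figure D3:**
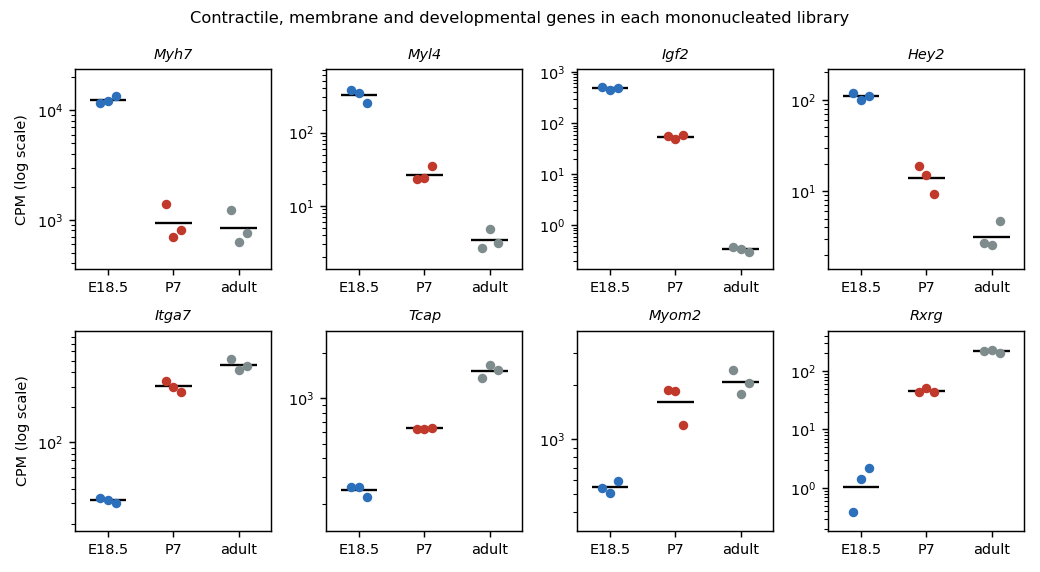
Level of 8 contractile, membrane and developmental genes in each mononucleated library of the 3 ages (E18.5, P7, adult), in CPM on a log axis; points are libraries and bars are means of the log values. Myh7, Myl4, Igf2 and Hey2 are high at E18.5, and Itga7, Tcap, Myom2 and Rxrg are low there; in all 8 the 3 points at P7 lie apart from the 3 at E18.5.

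Genes that shape the membrane current and the calcium cycle numbered 49, of which 18 were called higher, 1 lower and 30 not, with a median of 0.47, and 28 were called higher without E18.5 binucleated replicate 1. Cacna1g, a T-type calcium channel, had 83.8, 70.3 and 72.3 CPM at P7 and 16.1, 15.1 and 14.8 CPM at E18.5. Hrc, Trdn and Pln, which buffer calcium, anchor the release channel and brake the pump of the sarcoplasmic reticulum, gained 1.2 ± 0.15, 1.03 ± 0.17 and 0.65 ± 0.14. Kcnh2, the channel of the rapid repolarizing current, gained 1.24 ± 0.23. Slc8a1, the sodium-calcium exchanger on which fetal cells rely, was the member that fell, to 189, 188 and 159 CPM at P7, against 349, 304 and 305 CPM at E18.5. Ryr2, the release channel itself, was not called, at 519, 480 and 412 CPM at P7 and 409, 360 and 403 CPM at E18.5.

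At the cell border, 9 of 31 genes of the intercalated disc and costamere rose and 1 fell; without E18.5 binucleated replicate 1, 16 rose. Itga7, the laminin receptor of mature muscle, had 338, 298 and 271 CPM at P7, against 33.1, 32.0 and 30.2 CPM at E18.5, a change of 3.24 ± 0.23 (limma adjusted p = 7.81e-08). The sarcoglycans Sgca and Sgcb, which tie the membrane to the cytoskeleton, gained 0.95 ± 0.13 and 0.96 ± 0.10. Dsg2 and Dsc2, the desmosomal cadherins, gained 0.78 ± 0.17 and 0.89 ± 0.22. Laminin chains moved in both directions: Lama2, the mature muscle chain, gained 1.19 ± 0.29 and Lama4, the embryonic and vascular chain, changed by -1.15 ± 0.28. Gja1, the gap junction protein of working muscle, had 1470, 1450 and 1440 CPM at P7 and 1550, 1350 and 1530 CPM at E18.5, which overlap.

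Among 24 nuclear receptors 10 were called higher and 1 lower, with 6 higher when P7 mononucleated replicate 1 was left out. Rxrg, a partner of PPAR and thyroid hormone receptors, had 44.3, 51.4 and 43.3 CPM at P7, against 0.384, 1.41 and 2.17 CPM at E18.5, a change of 5.41 ± 0.59 (limma adjusted p = 6.5e-06). Thrb, a thyroid hormone receptor, had 12.9, 14.7 and 15.7 CPM at P7 and 0.769, 1.76 and 0 CPM at E18.5. Nr3c1, the glucocorticoid receptor, gained 1.03 ± 0.18, and Esrra, a driver of oxidative genes, 0.43 ± 0.13. The call of Esrra was lost without E18.5 mononucleated replicate 2 or 3 or P7 mononucleated replicate 1 or 3. Of 30 cardiac transcription factors 5 rose and 7 fell, with 8 higher without E18.5 binucleated replicate 1. Hey2, a Notch target that marks the compact ventricular wall, fell to 19, 15.1 and 9.37 CPM at P7, against 119, 101 and 109 CPM at E18.5. Hand1, Mef2c, Gata6 and Irx4, all factors of ventricular development, fell by 2.17, 0.77, 0.60 and 0.69. Klf9, a hormone-responsive factor, gained 1.68 ± 0.25.

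Genes of fetal growth were lower at P7. Of 16 measured imprinted and fetal growth genes 11 fell and 0 rose, with a median of -1.18. Igf2, the fetal insulin-like growth factor, had 55.0, 48.2 and 58.6 CPM at P7 and 521, 453 and 481 CPM at E18.5, a change of -3.17 ± 0.30 (limma adjusted p = 1.59e-06). Mest had 62.7, 37.2 and 49.7 CPM at P7, against 492, 476 and 444 CPM at E18.5. Grb10, an adaptor that restrains insulin signalling, fell by 1.6, and Cdkn1c, an imprinted inhibitor of cyclin-dependent kinases, by 2.65. Of 10 oncofetal genes 4 fell, among them Igf2bp1, an RNA-binding protein of fetal tissue, at 0.304, 0.792 and 0.756 CPM at P7 and 18.2, 23.1 and 22.6 CPM at E18.5. In the adult mononucleated libraries Igf2 averaged 0.345 CPM. Of 34 growth factor and Hippo pathway genes 4 rose and 5 fell. Erbb2, the neuregulin co-receptor linked to neonatal cardiomyocyte division, had 73.6, 47.4 and 48.4 CPM at P7, against 128, 129 and 114 CPM at E18.5, and was no longer called without E18.5 mononucleated replicate 2 or P7 mononucleated replicate 2 or 3. Fgf1 and Fgf16, growth factors made by cardiomyocytes, gained 1.87 ± 0.22 and 2.23 ± 0.33. The count of 5 became 9 without E18.5 binucleated replicate 1 and fell to 2 or 3 without any 1 of the 6 compared libraries other than P7 mononucleated replicate 1.

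Cell cycle genes were examined by phase. Of 55 DNA replication genes 2 were called higher and 0 lower, 44 had a positive change, and the median was 0.26. Mcm6, a subunit of the replicative helicase, had 176, 273 and 266 CPM at P7 and 204, 223 and 191 CPM at E18.5, which overlap. Rrm2, the regulated subunit of ribonucleotide reductase, had 244, 331 and 369 CPM at P7 and 235, 280 and 321 CPM at E18.5. Rpa2, of the single-strand binding complex, rose by 0.78 ± 0.17 (limma adjusted p = 0.00429), and Rfc4, of the clamp loader, by 0.67 ± 0.22, a call kept without P7 mononucleated replicate 1 and lost without any other 1 of the 6 compared libraries. Ccne2, the cyclin that opens S phase, had 61.7, 90.8 and 96.2 CPM at P7, against 43.6, 35.8 and 36.9 CPM at E18.5, a change of 1.08 ± 0.24 (limma adjusted p = 0.00411). P7 replicate 1 was the lowest of its group for all 5 of these genes. The count of 2 was 1 without any 1 of the 6 compared libraries other than P7 mononucleated replicate 1, 6 without E18.5 binucleated replicate 1, and 11 in the fit of the 6 libraries alone.

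Of 74 genes of mitosis 13 were called lower and 0 higher, with a median of -0.58, and in 40 the P7 values lay wholly below the E18.5 values (22.7% of all genes did). Cdc25b, a phosphatase that starts mitosis, had 6.12, 4.99 and 5.18 CPM at P7, against 28, 35.6 and 36.2 CPM at E18.5, a change of -2.60 ± 0.45 (limma adjusted p = 0.000592). Ube2c, the ubiquitin carrier of the anaphase complex, had 32.9, 36.2 and 39.9 CPM at P7 and 91.3, 108 and 135 CPM at E18.5 (-1.6 ± 0.33). Ccna2, Ccnb1 and Ccnb2, the cyclins of G2 and mitosis, fell by 1.22, 1.49 and 1.81, and Knstrn, a kinetochore and spindle adaptor, by 1.75. The call of Ccna2 was lost without E18.5 mononucleated replicate 3, and that of Ccnb1 also without P7 mononucleated replicate 1 or 2. Cenpf, a kinetochore protein, fell by 0.85. Mki67, the proliferation antigen, was not called, at 42.2, 38.5 and 41.9 CPM at P7 and 54.0, 54.4 and 72.4 CPM at E18.5, nor was Cdk1, the mitotic kinase, at 50.8, 58.7 and 73.4 CPM at P7 and 51.9, 70.3 and 79.6 CPM at E18.5. Of 21 alternative settings, Mki67 was called lower in 3 and Cdk1 in 0. The 13 became 6 without E18.5 mononucleated replicate 3 and 8 without P7 mononucleated replicate 2. They became 35 in the fit of the 6 libraries alone and 31 with voom weights. Of all genes, 945 were lower in the main fit, 1826 in the 6 libraries alone and 1196 with voom weights.

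For cytokinesis 5 of 26 genes fell and 1 rose, with a median of -0.84. Ect2, the exchange factor that places the cleavage furrow, had 8.6, 7.92 and 9.48 CPM at P7, against 41.8, 60.3 and 64.9 CPM at E18.5, a change of -2.66 ± 0.58 (limma adjusted p = 0.00387). Kif20a, a midzone kinesin, fell by 1.6 and Anln, a furrow scaffold, by 1.3, the last not called without E18.5 mononucleated replicate 2 or 3 or P7 mononucleated replicate 2 or 3. The count of 5 was 9 without E18.5 binucleated replicate 1 and 3 without E18.5 mononucleated replicate 2 or 3 or P7 mononucleated replicate 2. Of the regulators, Ccnd3 and Mycn, a G1 cyclin and a transcription factor of fetal growth, fell by 0.68 and 3.20; Mycn had 2.91, 3.31 and 2.73 CPM at P7 and 25.7, 36.1 and 22.7 CPM at E18.5. In the list of E2f, Rb and G1 regulators 1 of 28 rose and 4 fell, and in that of kinase inhibitors and the p53 response 3 of 19 rose and 2 fell. These counts were small and moved: without E18.5 binucleated replicate 1, 3 E2f list members were higher and 5 inhibitor list members lower. Without P7 mononucleated replicate 1 or 2, 2 E2f list members were lower and 1 inhibitor list member higher, and without E18.5 mononucleated replicate 1 or 2 that was also 1; without any 1 of the 6 compared libraries 1 inhibitor list member was lower. In adult mononucleated libraries the summed level of the replication genes was 800 to 929.6 CPM and that of the mitosis genes 510.3 to 573.6 CPM. The sums were 3010 to 4091 CPM at P7 and 3086 to 3264 CPM at E18.5 for replication, and 1972 to 2420 CPM at P7 and 2795 to 4017 CPM at E18.5 for mitosis.

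Promoters of replication genes are known for E2F sites and those of mitosis genes for the CHR element. In the windows described above, 17 of 54 promoters of replication genes (31.5%) held TTTCGCGC, TTTGGCGC or TTTCCCGC on either strand, against 8 of 70 promoters of mitosis genes (11.4%) and 1.84% of all promoters. TTTGAA or TTCGAA on either strand stood in 46 of 70 promoters of mitosis genes (65.7%), against 10 of 54 of the replication set and 19.2% of all promoters. A promoter of each kind is shown over the 130 bases before the start, with the E2F letters of Mcm6 and the CHR letters of Ube2c in capitals; they lie at chr1:128359706-128359835 (minus strand) and chr2:164769799-164769928 (plus strand).
Mcm6: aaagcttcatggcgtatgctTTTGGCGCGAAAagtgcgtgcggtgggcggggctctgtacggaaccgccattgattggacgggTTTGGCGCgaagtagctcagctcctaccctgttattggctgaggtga
Ube2c: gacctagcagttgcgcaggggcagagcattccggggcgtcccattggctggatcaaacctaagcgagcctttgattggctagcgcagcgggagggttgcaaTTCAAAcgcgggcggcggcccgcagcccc
In Mcm6 the first capital run is a pair of overlapping matches, 1 on each strand, and the Ube2c match is TTTGAA read on the other strand. The matches describe the letters and not binding.

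Transcripts of the translation machinery were slightly lower, and few genes passed the test in the main fit. Of 78 cytosolic ribosomal protein genes 3 had a positive change, and the median was -0.40. In 58 the P7 values lay wholly below the E18.5 values (22.7% of all genes did), but 1 was called lower and 1 higher. The higher one was Rpl3l, the muscle-specific copy of Rpl3, at 22.4, 25.4 and 22.8 CPM at P7, against 6.58, 4.36 and 7.36 CPM at E18.5. The lower one was Rpl4, which changed by -0.62 ± 0.13. Without E18.5 binucleated replicate 1 the lower count was 46, and in the fit of the 6 libraries alone it was 47. The sum of these genes was 25280 CPM in E18.5 binucleated replicate 1, against 9384 and 9429 CPM in replicates 2 and 3 of that group. Reads of these genes are uncertain because of their many near-identical pseudogenes. Of 29 ribosome biogenesis and translation factors 5 fell (13 without E18.5 binucleated replicate 1, 2 without E18.5 mononucleated replicate 2 and 3 without P7 mononucleated replicate 1, 2 or 3), among them Ncl, the nucleolar protein nucleolin, by 0.31, a call lost without E18.5 mononucleated replicate 2 or P7 mononucleated replicate 2 or 3. Among 19 splicing regulators 2 rose and 5 fell, with 4 higher without E18.5 binucleated replicate 1 and 3 lower without P7 mononucleated replicate 1. Rbfox1, a muscle and neuron splicing factor, had 25.1, 26.1 and 29.8 CPM at P7 and 6.66, 4.24 and 5.64 CPM at E18.5, and Ptbp1, which represses muscle exons, fell by 1.02.

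Markers of the conduction system were higher at P7. Of 13 measured 11 were called higher and 0 lower, with a median of 2.11, and this count was 11 or 12 when any 1 of the 6 compared libraries was left out. Cntn2, a cell adhesion protein of Purkinje fibres, had 105, 37.1 and 58.9 CPM at P7 and 0, 0 and 0.632 CPM at E18.5. Gja5, the fast gap junction protein of Purkinje fibres and atria, had 233, 83.2 and 146 CPM at P7, against 38.7, 26.8 and 42.2 CPM at E18.5. Etv1, a transcription factor of fast-conducting cells, had 116, 68.6 and 95.6 CPM at P7 and 19.5, 24.3 and 19.9 CPM at E18.5, a change of 2.11 ± 0.23 (limma adjusted p = 7.44e-06). Scn10a, a neuronal-type sodium channel, gained 3.60 ± 0.44, and Tbx3, the factor of the central conduction system, 2.74 ± 0.39. The summed level of the 13 was 958.5, 539.1 and 694.4 CPM at P7, against 182.6 to 196.5 CPM at E18.5 and 180.0 to 216.7 CPM in the adult mononucleated libraries. P7 replicate 1 was the highest and replicate 2 the lowest for Cntn2, Gja5, Etv1 and Scn10a alike. In bulk libraries, more cells of a type and more RNA per cell cannot be told apart.

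Chamber markers did not move as sets. Of 12 atrial markers 4 rose and 4 fell: Gja5, Stard10, Tbx5 and Kcnj3 rose, and Myl7, Myl4, Bmp10 and Dkk3 fell. The calls of Kcnj3, Tbx5 and Bmp10 were each lost without E18.5 mononucleated replicate 2 or 3 or P7 mononucleated replicate 1, among others, which left 2 atrial markers higher. Their summed level was 513.6 to 1002 CPM at P7 and 994.7 to 1658 CPM at E18.5. Of 11 ventricular markers 3 rose, namely Mpped2, Cyp2j6 and Pln. The 4 that fell were Myh7, Hey2, Hand1 and Irx4, which are themselves fetal or developmental genes. Mpped2, a phosphodiesterase on the ventricular list, had 178, 97.3 and 134 CPM at P7, against 37.7, 28.2 and 32.0 CPM at E18.5, in the same order of libraries as the conduction markers.

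Markers of other cells were mostly lower at P7 or not called. Of 14 fibroblast markers 6 fell and 0 rose, and their sum was 389.7 to 458.2 CPM at P7 and 1139 to 1212 CPM at E18.5. Most of that sum was Gsn, Fstl1 and Vim, which changed by -1.52, -1.15 and -2.92. The others that fell were Col1a1, Col1a2 and Col5a1, at -3.27, -2.25 and -1.79. Which cells held these transcripts was not tested. Col1a1 averaged 1.56 CPM at P7 and 9.65 CPM at E18.5, Dcn 3.01 and 4.27 CPM, and Pdgfra 0.474 and 1.38 CPM. Of 20 endothelial markers 1 fell, and their sum was 27.65 to 52.36 CPM at P7 and 39.98 to 69.28 CPM at E18.5, with Pecam1 at 2.58 and 3.19 CPM. Of 6 epicardial and Schwann markers 3 fell, with sums of 8.113 to 14.89 CPM at P7 and 37.36 to 42.84 CPM at E18.5. Of 12 pericyte and smooth muscle markers 1 rose (4 without E18.5 binucleated replicate 1) and 3 fell (1 without P7 mononucleated replicate 1). The 1 that rose was Pdgfrb, by 4.38, a call lost with quantile normalization or voom weights. Those that fell were Mcam, Acta2 and Cnn1. The sums were 2796 to 3016 CPM at P7 and 3018 to 3106 CPM at E18.5. Of 7 erythroid and platelet markers 1 rose and 1 fell, with sums of 231.4 to 272.8 CPM at P7 and 211.9 to 235.6 CPM at E18.5. Of 8 leukocyte markers the 1 that rose was Lyz2, lysozyme of macrophages, at 17.8, 14.9 and 25.7 CPM at P7 and 3.16, 1.57 and 2.30 CPM at E18.5; the other 7 were not called, the sums were 15.88 to 26.52 CPM at P7 and 3.068 to 4.436 CPM at E18.5, and C1qb and Laptm5 had no count at either age. The part of these cells in the changes of matrix genes and of any other list was not tested. Of 34 matrix genes 7 rose and 8 fell. Fn1, Nid1, Nid2, Lama4, Col1a1, Col1a2, Col5a1 and Col6a1 were lower, in the direction of the fibroblast markers. Col1a1 was not called with voom weights, and Col1a2 neither with them nor in the fit of the 6 libraries alone. Those that rose were Fbln1, Eln, Timp1, Lamb2, Lama2, Sparc and Timp2. Fbln1 gained 2.47 and Eln 2.11. The calls of Eln, Lamb2 and Timp2 were lost without E18.5 mononucleated replicate 1, among others. Sparc, a collagen chaperone, had 781, 700 and 893 CPM at P7, against 387, 352 and 369 CPM at E18.5.

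Other steep changes followed. Art1, a muscle ADP-ribosyltransferase, had 62.7, 44.4 and 42.6 CPM at P7 and 0.983, 0.497 and 1.35 CPM at E18.5, a change of 5.78 ± 0.26 (limma adjusted p = 6.93e-10). Tuba8, a tubulin of muscle and testis, had 76.1, 135 and 134 CPM at P7, against 5.72, 2.45 and 4.20 CPM at E18.5, and Mapt, the microtubule-binding protein tau, gained 5.07 ± 0.45. Arhgap20, a GTPase activator, gained 5.49 ± 1.03. On the falling side, Spon1, a secreted matrix protein, had 10.7, 11.2 and 10.9 CPM at P7 and 113, 133 and 116 CPM at E18.5, and Sfrp1, a secreted Wnt antagonist, 10.5, 7.74 and 10.2 CPM at P7, against 84.4, 88.9 and 90.8 CPM at E18.5. Nid1, a basement membrane linker of the matrix list, changed by -4.45 ± 0.52. Adult mononucleated libraries stood further out in the same direction for Art1, Tuba8, Mapt and Arhgap20, at means of 414, 533, 82.5 and 107 CPM, and for Spon1 and Sfrp1, at 1.32 and 1.08 CPM.

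The series also holds binucleated cells of both ages, so each change could be set against the same change in the other class, with 3 libraries in each of the 4 groups and none shared. Whether same-numbered libraries of both classes came from the same hearts is not known, and the test of the difference took all libraries as independent. In binucleated cells 4332 genes were called between P7 and E18.5 (36%). Of the genes called in mononucleated cells, 956 were higher and 723 lower at P7 in both classes, 22 were higher in mononucleated and lower in binucleated cells, and 0 were lower in mononucleated and higher in binucleated cells. A test of the difference between the changes, mononucleated minus binucleated, called 281 genes (2.33%), 253 of them above 0 and 28 below 0. A difference above 0 can be a larger gain in mononucleated cells or a larger fall in binucleated cells. Of the 281, 75 had a mean under 5 CPM in both mononucleated groups, and 18 were among the 67 measured markers of other cells. Without E18.5 binucleated replicate 1 it called 568, and without P7 mononucleated replicate 1, 2 or 3 it called 185, 176 and 160, without P7 binucleated replicate 2 or 3, 163 and 170.

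**Figure D4:**
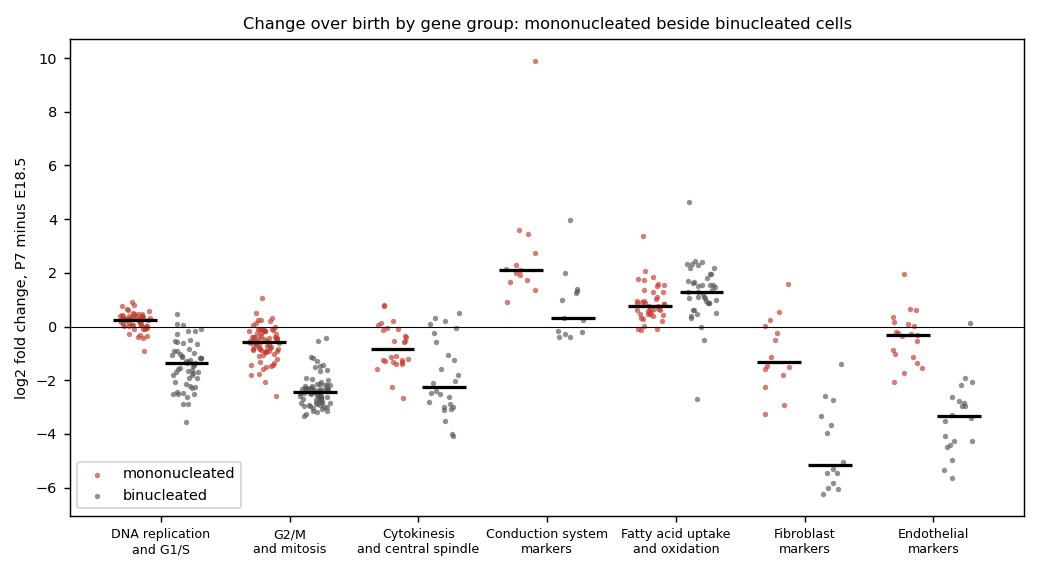
Log2 fold change from E18.5 to P7 of each measured member of 7 gene groups, in mononucleated cells (left of each pair) and in binucleated cells (right); points are genes and bars are medians. Replication genes lie near 0 in mononucleated cells and well below it in binucleated cells, conduction markers rise in mononucleated cells, and fibroblast and endothelial markers fall much further in binucleated cells.

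Cell cycle genes made up 53 of the 281. The median change of the 55 replication genes was 0.26 in mononucleated and -1.37 in binucleated cells, and the difference was called for 24 of them, all above 0. For the 74 mitosis genes the medians were -0.58 and -2.46, and 21 differed, all above 0. Rrm2 changed by 0.16 in mononucleated cells and by 2.08 less than that in binucleated cells, where it had 84.1, 81.3 and 92.1 CPM at P7, against 277, 336 and 362 CPM at E18.5. Ccne2 had 12.1, 7.57 and 13.9 CPM at P7 in binucleated cells and 27.1, 41.5 and 36.0 CPM at E18.5, so that it rose in mononucleated cells and fell in binucleated ones (difference 2.74, limma adjusted p = 0.000691). Cenpf fell in both classes, by 0.85 in mononucleated and 2.84 in binucleated cells. The summed mitosis genes reached 1203 to 1419 CPM in P7 and 6076 to 6724 CPM in E18.5 binucleated libraries, against the 1972 to 2420 and 2795 to 4017 CPM of mononucleated ones.

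Conduction markers also parted the classes. Their median change was 2.11 in mononucleated and 0.30 in binucleated cells, where the sum was 232.8 to 271.1 CPM at P7 and 164.4 to 214.5 CPM at E18.5. The difference was called for Etv1, Tbx3, Scn10a and Id2, at 2.30, 2.91, 2.61 and 1.73; for Gja5 it was 2.30 and missed the threshold (limma adjusted p = 0.0773). Mest fell in both classes, and further in binucleated cells, at 9.39, 7.13 and 10.3 CPM at P7 and 394, 521 and 462 CPM at E18.5 (difference 2.42). Below 0, among genes in the upper 75% of mean level, the smallest adjusted p belonged to Cavin4, Vldlr, Ankrd23, Fblim1, Efnb3 and Plin5, whose changes were larger in binucleated cells. Plin5 gained 3.37 in mononucleated and 4.65 in binucleated cells, and Vldlr, a lipoprotein receptor, 0.60 and 1.27. Markers of other cells moved with this contrast: in binucleated libraries the fibroblast sum was 273.7 to 313.6 CPM at P7 and 1264 to 2069 CPM at E18.5, and the endothelial sum was 26.81 to 29.01 CPM at P7 and 154.9 to 256.7 CPM at E18.5. The difference was called for 7 of 14 fibroblast and 7 of 20 endothelial markers, all above 0. Their part in the other differences was not tested.

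**Figure D5:**
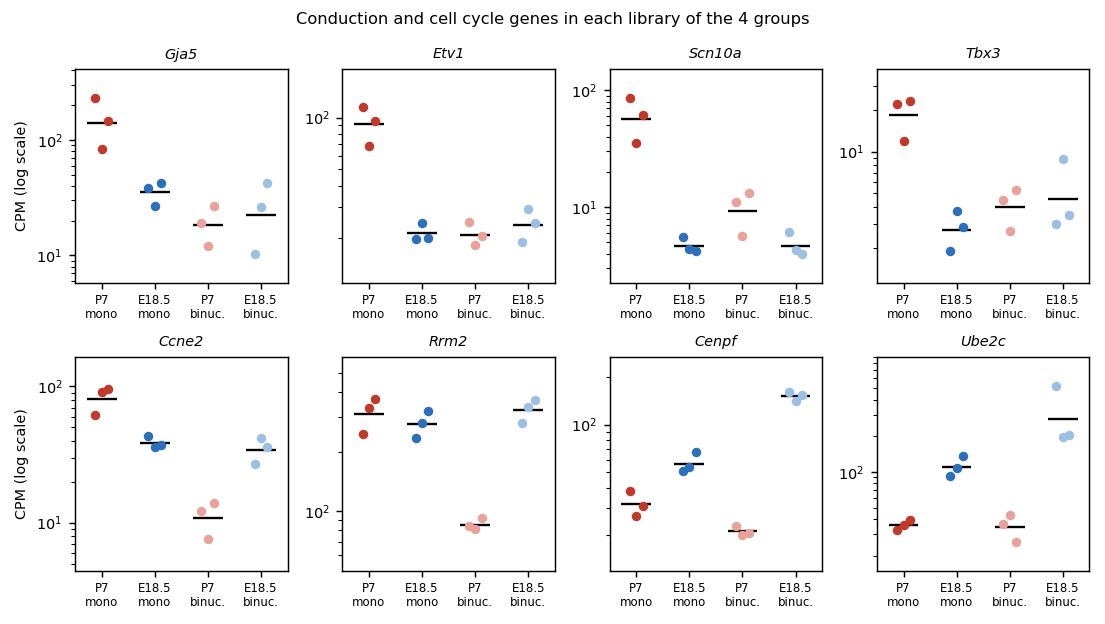
Level of 4 conduction markers and 4 cell cycle genes in each library of P7 mononucleated, E18.5 mononucleated, P7 binucleated and E18.5 binucleated cells, in CPM on a log axis; points are libraries and bars are means of the log values. The conduction markers are high in the P7 mononucleated libraries, Ccne2 and Rrm2 are low in the P7 binucleated libraries, and Ube2c is low at P7 in both classes.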

How the data were processed

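Values arrived as 1 deposited log2 table for each library, with 12048 gene identifiers. The submitters' processing notes name STAR, limma and build mm9; versions, read counter, annotation and gene filter are not known here. The labels' protocols describe a stranded mRNA kit after a SMARTer amplification. No molecular identifiers are named, so intervals and floors reflect counting error alone. In every library the log2 values the authors deposited were log2 of a whole count plus 0.5, times 1 factor per library; the recovered counts lay within 9.6e-09 of whole numbers (100% within 0.001). Library totals ran from 14833334 to 22690952. CPM were computed from these counts with the deposited scaling. Within the 6 libraries, replicate counts varied beyond sampling noise, with a chi-square of 13.7 to 35.8 per degree of freedom.

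The test was limma 3.58.1 in R 4.3.3 on the log2 values, with a mean for each of the 6 groups of all 18 libraries, 12 residual degrees of freedom and an intensity trend. Tests were two-sided, with Benjamini-Hochberg adjustment over 12048 genes and a threshold of 0.05. The code was tested on simulated data. The 0.5 added to each count makes folds of low genes too small. The difference between mononucleated and binucleated changes was a contrast of the same model.

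Symbols came from the GENCODE M21 name table, which matched 11927 identifiers and left 121 unnamed. Promoters came from RefSeq (GRCm38.p6), joined by symbol. The comparison, the 40 gene lists and the alternatives were chosen with earlier results of these data known, so no test or adjusted p over a list is given. Genes were named by a rule: the 12 steepest calls in each direction with no overlap between groups and a mean in the upper 75% of genes, up to 4 members per list with the smallest adjusted p, members of isoform pairs and complexes, and the 6 differences in each direction with the smallest adjusted p. Unnamed and predicted genes were passed over, not every gene that the rule gives is described, and a few further list members were named after their values were seen. Alternatives were other normalizations, weights, offsets, filters, sets of libraries in the fit, the replicate block, and leaving out single E18.5 or P7 libraries. Adult libraries were not left out singly. For the calls between P7 and E18.5, E18.5 binucleated replicate 1 was the only binucleated library left out singly.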

Additional observations from a re-analysis of the deposited data

Results flagged for a closer look

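The changes of 22 described genes differed between the classes, by the limma contrast of the P7 minus E18.5 change in mononucleated cells minus that in binucleated cells (adjusted p under 0.05 over all 12048 genes). Each value is that difference on the log2 scale.

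Among cell cycle genes it was 2.74 for Ccne2, 2.08 for Rrm2, 1.99 for Cenpf, 1.98 for Rfc4 and 1.81 for Rpa2. For Rpa2 the mean level was 91.3 CPM at P7 and 52.5 CPM at E18.5 in mononucleated cells, and 28 CPM at P7 and 56.8 CPM at E18.5 in binucleated cells. Among conduction markers it was 2.91 for Tbx3, 2.61 for Scn10a, 2.30 for Etv1 and 1.73 for Id2. Among chamber markers it was 2.61 for Stard10 and 2.01 for Mpped2; Stard10 had 67.4 CPM at P7 and 6.23 CPM at E18.5 in mononucleated cells, against 13 CPM at P7 and 8.19 CPM at E18.5 in binucleated cells.

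The imprinted gene Mest had a difference of 2.42 and the matrix gene Sparc one of 1.45. Slco3a1, an organic anion transporter, differed by 2.18, with 106 CPM at P7 and 14.5 CPM at E18.5 in mononucleated cells. Tagln2, a transgelin, differed by 2.84; it fell in both classes. Lyz2, the macrophage lysozyme, had the widest difference of these 22 genes, 5.41, with 19.5 CPM at P7 and 2.34 CPM at E18.5 in mononucleated cells, against 2.85 CPM at P7 and 15.8 CPM at E18.5 in binucleated cells.

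In the other direction the difference was -0.84 for Cavin4, -0.67 for Vldlr, -0.95 for Ankrd23, -1.03 for Fblim1, -1.03 for Efnb3 and -1.27 for Plin5. All 6 gained in binucleated cells; in mononucleated cells all but Efnb3 were called higher, and Efnb3 had 151 CPM at P7 and 136 CPM at E18.5.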

How the results depend on the processing

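The number of genes called between P7 and E18.5 was 2231. It was 3875 with the 6 compared libraries alone, 3417 with the 9 mononucleated libraries, 3901 without E18.5 binucleated replicate 1, 5177 with array weights, and 1197 with a 2-fold change also required. Leaving out 1 of the 6 compared libraries gave 1628 to 1833, and leaving out any library tried, 1628 to 3901. For the difference between classes, 281 genes became 430 with voom weights and 1199 with array weights, and 160 to 568 when 1 library was left out. The causes were not tested. Of 291 called genes followed through up to 21 settings, 0 changed sign and 158 stayed past the threshold in every setting they were tested in. When the genes of lowest mean level were left out, fewer conduction markers were tested and 7 were called higher. Same-numbered P7 and E18.5 mononucleated libraries did not deviate together (correlations 0.01, -0.01 and 0.03), so replicate numbers were not paired across ages. With the replicate block 2189 genes were called, 2096 of them shared with the 2231, and 244 for the difference between classes. With the block in the 6 libraries alone, 3340 were called. Pairing of same-numbered mononucleated and binucleated libraries within an age was not tested, and the block does not model it. Summed immediate early and stress genes were 3187, 4631 and 5031 CPM in E18.5 mononucleated replicates 1 to 3. They were 3213, 4752 and 5499 CPM in E18.5 binucleated replicates 1 to 3. At P7 the sums were 4641, 4228 and 3633 CPM in mononucleated and 4909, 4914 and 3331 CPM in binucleated replicates. Genes with few counts, such as Cntn2 at E18.5, were limited by depth.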

Other observations

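Of 27 immediate early and stress genes 2 rose and 4 fell; the 2 became 0 without E18.5 mononucleated replicate 1 or P7 mononucleated replicate 1 or 2, 1 without E18.5 mononucleated replicate 2 and 4 without E18.5 binucleated replicate 1. Hspa1b, an inducible heat shock protein, had 13.5, 26.1 and 12.7 CPM at P7, against 58.4, 90.7 and 75.8 CPM at E18.5, and its near-identical copy Hspa1a fell by 1.97; reads of the pair cannot be told apart with certainty. Klf6, a stress-responsive factor, had 38.3, 39.7 and 36 CPM at P7 and 79.9, 155 and 206 CPM at E18.5. Dusp1, a phosphatase that ends kinase signalling, had 482, 448 and 297 CPM at P7, against 139, 208 and 213 CPM at E18.5. Junb, an AP-1 factor, was the other that rose, with 147, 137 and 83.6 CPM at P7 and 24.6, 55.3 and 69.4 CPM at E18.5 (limma adjusted p = 0.0469).

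Chromatin genes moved little. On a list of 24 DNA methylation, Polycomb and other chromatin genes 1 fell, Smarca4, a chromatin remodelling ATPase that is neither a DNA methylation nor a Polycomb gene. It had 83.5, 91.9 and 82 CPM at P7, against 115, 121 and 132 CPM at E18.5. Smarca4 was not called without E18.5 mononucleated replicate 3 or P7 mononucleated replicate 1 or 3. Of 16 histone genes 1 fell, H2afx, the variant marked at DNA breaks, with 29.4, 24.6 and 32.4 CPM at P7 and 48.5, 70.8 and 65.3 CPM at E18.5. Of 24 genes of antigen presentation and interferon response 4 rose and 1 fell, mostly at low levels, and leaving out 1 compared library left 1 to 3 higher. Ifi27, an interferon-induced gene, had 5.51, 8.58 and 9.02 CPM at P7, against 1.54, 3.63 and 1.49 CPM at E18.5.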
